A study of Mus musculus with 8 samples.

Results

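The tricarboxylic acid cycle enzymes described here are the products of 9 mouse genes, Cs, Idh3a, Idh3b, Idh3g, Ogdh, Dlst, Suclg1, Fh1 and Mdh2. They were chosen by name, and every probe set that the platform annotation assigns to them was used, which gave 22 of the 34945 probe sets and 9 of the 18193 genes tested. The tissue was epididymal white fat, the depot that lies along the epididymis, and its RNA was measured on Affymetrix 3′ expression arrays with 1 array per mouse. The 4 LPA4-KO mice were males with a deficient allele of the X-linked gene Lpar4 (Lpar4 -/Y), which encodes LPA4, a receptor for lysophosphatidic acid. The 4 WT mice carried the wild-type gene. All were male littermates on the C57BL/6 background, 12 weeks old and fed standard chow. The labels name no promoter or cell type that would restrict the deficiency, and the tissue is the whole pad, so fewer cells of a type and less RNA per cell cannot be told apart.

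The cycle runs in the mitochondrial matrix. It oxidises the acetyl group of acetyl-CoA to carbon dioxide and passes the electrons to the respiratory chain, and its intermediates also leave as building blocks. In fat cells, citrate made by the first enzyme can be exported to the cytosol, where it supplies acetyl-CoA for fatty acid synthesis.

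In LPA4-KO fat the cycle enzymes that varied between arrays stood slightly above WT, by 1.06-fold to 1.26-fold, and most of these differences did not pass the test over the whole array. At 1 of the 22 probe sets, for the malate dehydrogenase gene Mdh2, the level was significantly higher in LPA4-KO mice, and none was significantly lower. The median log2 fold change (LPA4-KO minus WT) over the 22 probe sets was 0.18, against 2.4e-05 over all probe sets tested. All values are log2 values as deposited, group errors are SD with n = 4, errors of log2 fold changes are SE, and adjusted p-values come from limma over all 34945 probe sets, where 0.612% were called higher and 0.321% lower (0.933% in all). Of the 22, 13 probe sets of 7 genes varied, meaning that they spanned over 0.1 log2 across the 8 arrays. The other 9, among them all probe sets of Ogdh and Dlst, were nearly constant. Of all probe sets tested, 19.1% varied. Nearly constant probe sets included some of the brightest, such as that of the adipokine gene Adipoq at 13.83, so flatness in this table is no evidence that a transcript was equal in both groups.

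At probe set 1452424_at, Lpar4 itself averaged 5.80 ± 0.05 in LPA4-KO mice, against 6.52 ± 0.03 in WT mice (log2 fold change -0.71 ± 0.03, adjusted p = 0.00334). Its other probe sets, 1434186_at (0.68 ± 0.24) and 1439665_at (0.48 ± 0.25), did not pass. The place of these probe sets relative to the deleted part is not given in the sources used here. Adipocyte markers stood among the brightest probe sets, with Adipoq at 13.83, Lpl at 13.76 and Fabp4 at 13.40 in both groups. The markers of epididymis and testis that were measured, 5 of 6, were nearly constant and dim, with Prm1 at 6.62 in both groups. Array medians lay between 6.50 and 6.51. Precision here depends on the number of arrays.

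Promoter sequence for the cycle genes is shown because the varying probe sets of 7 of them had log2 fold changes of 1 sign, although 1 gene alone passed the test. RefSeq (GRCm38.p6) gave a promoter for 8 of the 9 genes, and Idh3a had no entry. The 250 bases before the transcription start of Cs (chr10:128337477-128337726, plus strand), Fh1 (chr1:175625636-175625885, minus strand) and Mdh2 (chr5:135778399-135778648, plus strand) stand for the first and the last steps of the cycle, where capitals mark the letters TCTCGCGAGA and CCAAT on either strand.
Cs: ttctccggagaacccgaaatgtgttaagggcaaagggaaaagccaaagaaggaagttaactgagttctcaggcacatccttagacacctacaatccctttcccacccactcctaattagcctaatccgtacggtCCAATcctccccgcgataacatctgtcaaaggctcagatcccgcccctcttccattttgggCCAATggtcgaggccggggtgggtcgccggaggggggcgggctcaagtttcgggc
Fh1: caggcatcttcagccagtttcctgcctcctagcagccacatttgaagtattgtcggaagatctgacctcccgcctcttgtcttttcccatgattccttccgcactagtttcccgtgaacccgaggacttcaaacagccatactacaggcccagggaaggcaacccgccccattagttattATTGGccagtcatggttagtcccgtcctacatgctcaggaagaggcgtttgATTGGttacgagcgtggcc
Mdh2: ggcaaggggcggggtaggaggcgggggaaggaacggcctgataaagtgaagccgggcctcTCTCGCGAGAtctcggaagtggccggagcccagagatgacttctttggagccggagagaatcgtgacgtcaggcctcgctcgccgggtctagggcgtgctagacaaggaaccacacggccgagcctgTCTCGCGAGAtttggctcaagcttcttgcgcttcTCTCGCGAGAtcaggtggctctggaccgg
The motif TCTCGCGAGA, which reads the same on both strands, was present in the Mdh2 window 3 times, beginning 190, 63 and 29 bases before the start, and in no window of the other 7 genes. It stood in 0.39% of the 32851 promoter windows of this length. CCAAT or its complement stood in at least 1 window of 4 genes (Cs, Idh3b, Ogdh and Fh1) and in 33.8% of all windows. Ogdh had 6 windows, not all with a match, and each other gene 1, so the count of genes is not a share of windows. Both were added after these sequences had been read, and TCTCGCGAGA was picked because it recurs within 1 window of a cycle gene. Its share of all windows therefore does not measure how unusual its repeats in Mdh2 are. The motif TCAAGGTCA of estrogen-related receptors (0.387% of windows), the NRF1 motif (0.782%) and the ETS family motif CCGGAAGT (2.88%) were searched on both strands and matched none of the 8 genes' windows. A match of letters is a description and not a measured site.

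Citrate synthase, which joins acetyl-CoA to oxaloacetate and so opens the cycle, was higher in LPA4-KO mice by values that did not pass the test. At probe set 1450667_a_at, Cs was at 10.88, 10.73, 10.81 and 10.82 in LPA4-KO replicates 1 to 4, against 10.38, 10.54, 10.47 and 10.66 in WT replicates 1 to 4. The lowest LPA4-KO array lay above the highest WT array. The log2 fold change was 0.30 ± 0.06 (adjusted p = 0.0962), a 1.23-fold level. At 1422578_at, Cs was at 10.62, 10.42, 10.44 and 10.45 in LPA4-KO mice, against 10.23, 10.25, 10.22 and 10.26 in WT mice. LPA4-KO replicate 1 stood above the other 3 of its group, and the groups again did not overlap (0.24 ± 0.04, adjusted p = 0.0746). Without LPA4-KO replicate 1 this probe set passed, with a log2 fold change of 0.20 and an adjusted p of 0.0332. With any other single array left out it did not pass (adjusted p from 0.121 to 0.152). The remaining Cs probe set, 1422577_at, was nearly constant with a span of 0.052 log2, and it too was ordered with all LPA4-KO arrays above all WT arrays (0.03 ± 0.0076, adjusted p = 0.127).

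The third step is carried by NAD-dependent isocitrate dehydrogenase, an enzyme with catalytic alpha subunits (Idh3a) and with beta (Idh3b) and gamma (Idh3g) subunits, which turns isocitrate into 2-oxoglutarate. All 3 subunit genes stood higher in LPA4-KO mice at their brightest probe sets.
Idh3a at 1432016_a_at had 11.08, 10.89, 10.99 and 10.93 in LPA4-KO mice, against 10.74, 10.61, 10.62 and 10.58 in WT mice. The lowest LPA4-KO array was above the highest WT array, and the log2 fold change of 0.34 ± 0.05 was the largest among the 22 probe sets. Its adjusted p was 0.0515 over all probe sets, and 0.0451 when each gene was represented by its brightest probe set alone, a fit in which 0.863% of 18193 genes were called higher and no other cycle gene passed.
The dimmer Idh3a probe sets gave smaller differences. At 1422500_at the LPA4-KO arrays were at 7.38, 7.04, 7.29 and 7.23 and the WT arrays at 7.02, 7.08, 7.14 and 7.05, and LPA4-KO replicate 2 lay inside the WT range (0.16 ± 0.07, adjusted p = 0.318). At 1422501_s_at the difference was 0.09 ± 0.02 (adjusted p = 0.148) with no overlap between groups. The last, 1447701_x_at, was nearly constant at 6.67. The 4 probe sets of this gene therefore differed in the size of the contrast they gave, from 6.1e-05 to 0.34 log2.

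Idh3b at 1418886_s_at had 10.99, 10.90, 10.95 and 11.16 in LPA4-KO mice, against 10.74, 10.81, 10.75 and 10.82 in WT mice (0.22 ± 0.06, adjusted p = 0.142). At 1418885_a_at it had 10.46, 10.34, 10.24 and 10.45 in LPA4-KO mice, against 10.20, 10.23, 10.03 and 10.09 in WT mice (0.24 ± 0.07, adjusted p = 0.167). At the second of these, LPA4-KO replicate 3 was only just above WT replicate 2. Its other probe set, 1441271_at, was nearly constant near 6.43.
Idh3g at 1416788_a_at had 10.91, 10.86, 10.82 and 10.97 in LPA4-KO mice, against 10.49, 10.71, 10.72 and 10.69 in WT mice (0.24 ± 0.06, adjusted p = 0.14). WT replicate 1 was the low array of its group, and the groups did not overlap. Without WT replicate 1 the difference was 0.18, with an adjusted p of 0.117. At 1416789_at the values were 10.65, 10.58, 10.56 and 10.73 in LPA4-KO mice, against 10.44, 10.46, 10.40 and 10.42 in WT mice (0.20 ± 0.04, adjusted p = 0.0882). Like Lpar4, Idh3g lies on the X chromosome.

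The fourth step is the 2-oxoglutarate dehydrogenase complex, made of the dehydrogenase Ogdh, the succinyltransferase Dlst and the dihydrolipoamide dehydrogenase Dld. Ogdh and Dlst could not be compared, because none of their probe sets varied. Ogdh was at 8.84 and 6.58 at its 2 probe sets in all 8 arrays, with spans of 0.00048 and 0.00064 log2. The 4 Dlst probe sets were at 9.48, 7.38, 6.70 and 6.22 in all arrays, with spans of at most 0.00059 log2. The level of 9.48 for Dlst lies well inside the range of values, so dimness alone does not mark these flat probe sets.
Dld, which this complex shares with the pyruvate dehydrogenase complex, varied at 1 probe set. At 1423159_at it was at 9.99, 10.03, 9.99 and 10.08 in LPA4-KO mice, against 9.72, 9.73, 9.73 and 9.63 in WT mice (0.32 ± 0.03, adjusted p = 0.0268). The pass ended with any single array left out (adjusted p from 0.0506 to 0.0794).

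Suclg1 encodes the alpha subunit of succinyl-CoA ligase, which makes succinate and a nucleoside triphosphate. Its single probe set, 1415891_at, had 10.11, 9.96, 10.03 and 10.30 in LPA4-KO mice, against 9.73, 9.93, 9.99 and 9.90 in WT mice. LPA4-KO replicate 2 lay below WT replicate 3, and the difference of 0.21 ± 0.09 did not pass (95% interval -0.01 to 0.43, adjusted p = 0.306). Fh1, the fumarase that adds water to fumarate to give malate, had 10.58, 10.44, 10.56 and 10.73 in LPA4-KO mice at 1424828_a_at, against 10.33, 10.37, 10.19 and 10.27 in WT mice. The groups did not overlap, and the difference was 0.29 ± 0.07 (1.22-fold, adjusted p = 0.119).

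Mdh2, the mitochondrial malate dehydrogenase that regenerates oxaloacetate, held the only probe set of the 22 that passed. At 1416478_a_at the LPA4-KO arrays were at 11.16, 11.11, 11.09 and 11.15, against 10.81, 10.97, 10.83 and 10.86 in WT mice, a 1.20-fold rise (0.26 ± 0.04, adjusted p = 0.0401). The second probe set, 1433984_a_at, was at 11.75, 11.71, 11.72 and 11.81 in LPA4-KO mice, against 11.43, 11.62, 11.55 and 11.57 in WT mice (0.21 ± 0.04, adjusted p = 0.0986). All LPA4-KO arrays were above all WT arrays at both. The pass at 1416478_a_at held without WT replicate 2 (adjusted p = 0.0494) and ended without any other single array (highest adjusted p 0.109), while the log2 fold change stayed between 0.24 and 0.29.

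**Figure D1:**
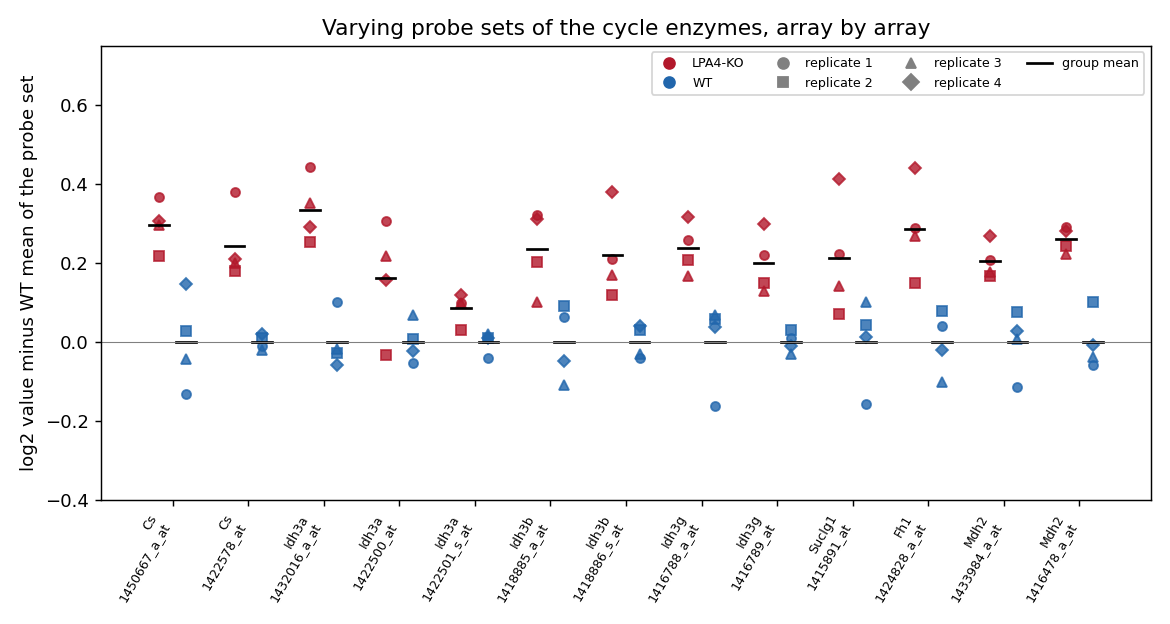
Log2 values of the 13 varying probe sets of the cycle genes in each array, minus the WT mean of the probe set (y axis), with LPA4-KO arrays in red to the left of WT arrays in blue, a symbol for each replicate number and a black line at each group mean. The LPA4-KO points lie above all WT points at 11 of the 13 probe sets, the exceptions being Idh3a 1422500_at and Suclg1.

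Seen over the cycle as a whole, the groups did not overlap, with LPA4-KO higher, at 11 of the 13 varying probe sets, where 12.9% of all 6682 varying probe sets showed this. The exact two-sided permutation p of each of the 11 was 0.0286, the smallest that the 70 arrangements of 4 against 4 arrays allow. Any probe set without overlap has this value, so it restates the count and adds nothing to it. At Idh3a 1422500_at the permutation p was 0.114, and at Suclg1 0.0571. All 13 log2 fold changes were positive, from 0.09 to 0.34 with a median of 0.24, against 43.2% positive and a median of -0.05 over all varying probe sets. These 13 were kept because they vary, so their counts describe them and are not a test. Nearly constant probe sets of Cs (1422577_at) and Dlst (1423710_at) were ordered in the same way, and over all 22 this makes 13, against 6.75% of all probe sets.
When the 6682 varying probe sets were fitted alone, a limit chosen with earlier results known, 9 of the 13 were called higher and 0 lower, where 8.35% of the varying probe sets were called higher and 10.5% lower. No member probe set was lower at an unadjusted p under 0.05 either. The 9 were both varying probe sets of Cs (adjusted p = 0.0248 and 0.0297), Idh3a 1432016_a_at (0.0137), Idh3b 1418886_s_at (0.0484), both of Idh3g (0.044 and 0.0444), Fh1 (0.032) and both of Mdh2 (0.0172 and 0.0356). With 1 array left out of that fit, from 2 to 6 of the 13 were called, with 2 when LPA4-KO replicate 1, 3 or 4 was left out or WT replicate 3, 3 without WT replicate 4, 4 without LPA4-KO replicate 2, 5 without WT replicate 2 and 6 without WT replicate 1. Idh3a 1432016_a_at and Mdh2 1416478_a_at were called in all 8 of these fits.

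**Figure D2:**
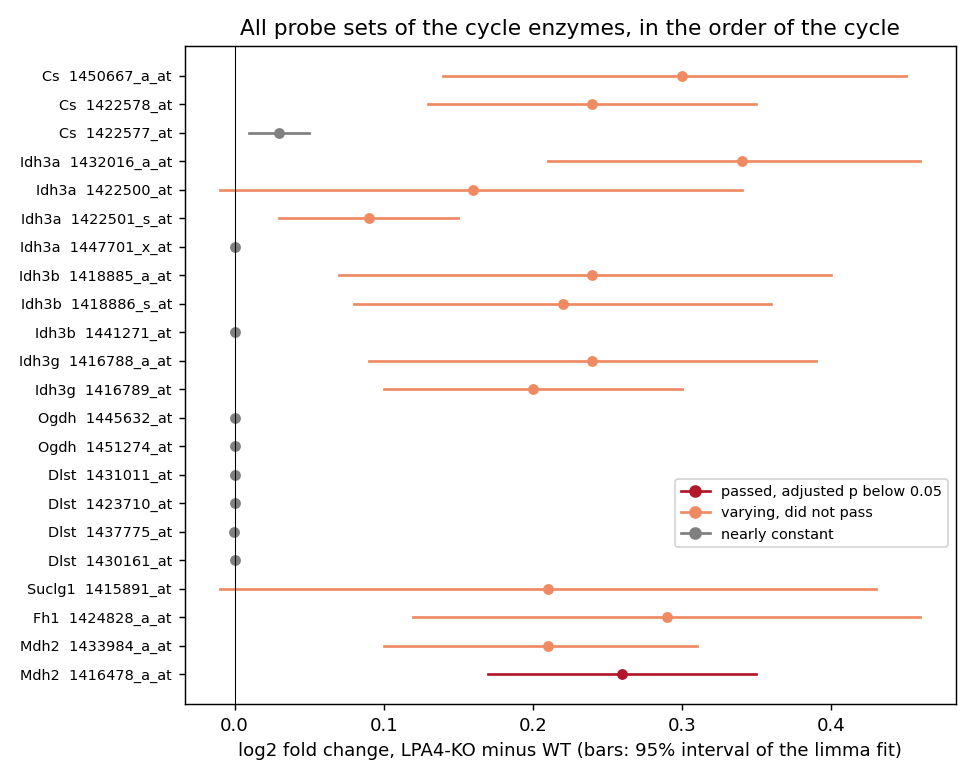
Log2 fold change, LPA4-KO minus WT (x axis), of all 22 probe sets in the order of the cycle, with 95% intervals of the limma fit. The 13 varying probe sets lie between 0.09 and 0.34, 1 of them (Mdh2 1416478_a_at) passed, and the 6 probe sets of Ogdh and Dlst lie at 0.

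Within the LPA4-KO group, the same arrays tended to be high or low across the enzymes, while the order of the WT arrays was less regular. Among LPA4-KO arrays, replicate 4 was the highest at 7 and replicate 1 at 6 of the 13 varying probe sets, and replicate 2 was the lowest at 9 and replicate 3 at 4. Among WT arrays, replicate 1 was the lowest at 8 probe sets but the highest at 1, Idh3a 1432016_a_at, and replicate 3 was the lowest at 4 and the highest at 4. Averaged over the 13, the deviations from the mean over all arrays were 0.16, 0.04, 0.08 and 0.18 in LPA4-KO replicates 1 to 4, and -0.16, -0.07, -0.12 and -0.11 in WT replicates 1 to 4. LPA4-KO replicate 2 thus stood nearest to the WT arrays, and WT replicate 1 farthest from the LPA4-KO arrays.
The 5 genes outside the cycle and its links whose profile over the 8 arrays was most like the mean profile of the 7 varying cycle genes were Bcap31, Uros, Ndufab1, Noa1 and Ndufa10. Their root mean square distance from it was 0.031, 0.032, 0.035, 0.039 and 0.039 log2, against a median of 0.22 over 3996 varying genes. Bcap31 encodes a protein of the endoplasmic reticulum membrane and Uros an enzyme of haem synthesis. Ndufab1 encodes the mitochondrial acyl carrier protein, which is also a part of complex I, Noa1 a mitochondrial GTPase and Ndufa10 a subunit of complex I. None of the 5 passed the test (adjusted p from 0.0767 to 0.147), and the cycle genes themselves lay 0.038 (Idh3b) to 0.10 (Idh3a) from the mean profile.

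The other enzymes of the cycle and the reactions that feed and drain it were followed in 5 lists with 33 measured genes and 72 probe sets, of which 38 varied. Of the 72, 7 rose and 1 nearly constant one fell, where 0.612% of all probe sets were called higher and 0.321% lower. None of the 8 passed when any single array other than WT replicate 1 was left out, nor with the replicate number as a block. Without WT replicate 1, 4 linked probe sets passed, of which 2 were among the 8 (Dlat 1426265_x_at and Idh2 1453601_at).
Among the other mitochondrial steps, 8 genes had 18 probe sets, and 8 of the 9 varying ones were positive with a median of 0.16. Dld rose, as given above. Succinate dehydrogenase, the enzyme that the cycle shares with the respiratory chain, did not pass at any subunit. Sdha at 1426688_at differed by 0.16 ± 0.04 (adjusted p = 0.138) and Sdhb by 0.22 ± 0.07 (adjusted p = 0.219). The Sdhc difference was 0.13 ± 0.04 and that of Sdhd 0.21 ± 0.07 at 1428235_at. Sucla2, the beta subunit that gives the ATP-forming ligase together with Suclg1, differed by 0.14 ± 0.04 (adjusted p = 0.132), and both Suclg2 probe sets were nearly constant.
Idh2, the NADP-dependent isocitrate dehydrogenase of mitochondria, was the varying member with a negative value. It was at 9.22, 9.08, 9.56 and 8.99 in LPA4-KO mice, against 9.23, 8.98, 9.34 and 9.44 in WT mice, and the groups overlapped (-0.04 ± 0.15, adjusted p = 0.947). The fall that passed was at the other Idh2 probe set, 1453601_at, whose difference was only -0.00056 log2 in a nearly constant probe set (adjusted p = 0.0268). Of all called probe sets, 75 were of this kind, with differences of at most 0.016 log2.

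Of the cytosolic counterparts, Mdh1 alone passed, at 2 of the 16 probe sets of the list. The 7 that varied were positive, from 0.17 to 0.44. Mdh1, the cytosolic malate dehydrogenase, rose at 1448172_at to 11.63, 11.67, 11.64 and 11.83 in LPA4-KO mice, against 11.18, 11.31, 11.28 and 11.23 in WT mice (1.36-fold, 0.44 ± 0.05, adjusted p = 0.0319). It also rose at 1454925_x_at (0.28 ± 0.04, adjusted p = 0.0351), and 1436834_x_at did not pass (0.30 ± 0.06, adjusted p = 0.0805). Idh1 at 1422433_s_at differed by 0.35 ± 0.16 (adjusted p = 0.346) and at 1419821_s_at by 0.17 ± 0.14 (adjusted p = 0.608), with overlapping groups at both, and all probe sets of Acly, the citrate lyase, were nearly constant.
Carbon entry held the largest differences. Pcx, the pyruvate carboxylase that refills oxaloacetate, rose 1.73-fold (0.79 ± 0.09, adjusted p = 0.0308). Dlat, the acetyltransferase of pyruvate dehydrogenase, rose at 1426265_x_at (0.56 ± 0.04, adjusted p = 0.0195) and 1452005_at (0.37 ± 0.05, adjusted p = 0.0445), while 1426264_at did not pass (0.49 ± 0.08, adjusted p = 0.0573). Me2, the mitochondrial malic enzyme, rose at 1439526_at, where it was at 7.40, 7.38, 7.24 and 7.46 in LPA4-KO mice, against 7.05, 6.94, 7.03 and 6.95 in WT mice (0.38 ± 0.05, adjusted p = 0.0401). Its probe sets 1426572_at (0.38 ± 0.08, adjusted p = 0.0899) and 1426573_at (0.11 ± 0.07, adjusted p = 0.477) did not pass. Glud1, the glutamate dehydrogenase that makes 2-oxoglutarate, had the opposite sign at both probe sets, -0.20 ± 0.10 and -0.19 ± 0.08 (adjusted p = 0.376 and 0.273).
In exchange with the cytosol no probe set passed. Slc25a1, the citrate carrier, differed by 0.36 ± 0.06 (adjusted p = 0.0554) and Me1, the cytosolic malic enzyme, by 0.31 ± 0.05 (adjusted p = 0.0666). A pair of genes of the malate-aspartate shuttle had the opposite sign. Got2, the mitochondrial aspartate aminotransferase, was at 8.52, 8.68, 8.69 and 8.56 in LPA4-KO mice, against 8.73, 8.80, 8.95 and 8.86 in WT mice (-0.23 ± 0.06, adjusted p = 0.147). Slc25a12, an aspartate-glutamate carrier, differed by -0.29 ± 0.09 (adjusted p = 0.182). The groups did not overlap at Got2 or Slc25a12, with LPA4-KO lower, where 15.4% of varying probe sets showed this. Other genes of this shuttle were positive, with Mdh1 and Mdh2 as given above. Slc25a11, its oxoglutarate carrier, differed by 0.18 ± 0.07 (adjusted p = 0.244). In this list 4 varying probe sets, that of Slc25a11 among them, had LPA4-KO higher without overlap, against 12.9% of all varying probe sets. Among related subunits and isoforms, Dhtkd1 (0.17 ± 0.09, adjusted p = 0.419) and Sdhaf4 (0.02 ± 0.03, adjusted p = 0.836) varied, the other probe sets were nearly constant and none passed. Of these, Sdhaf3 had the smallest p (adjusted p = 0.115) in a nearly constant probe set.

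**Figure D3:**
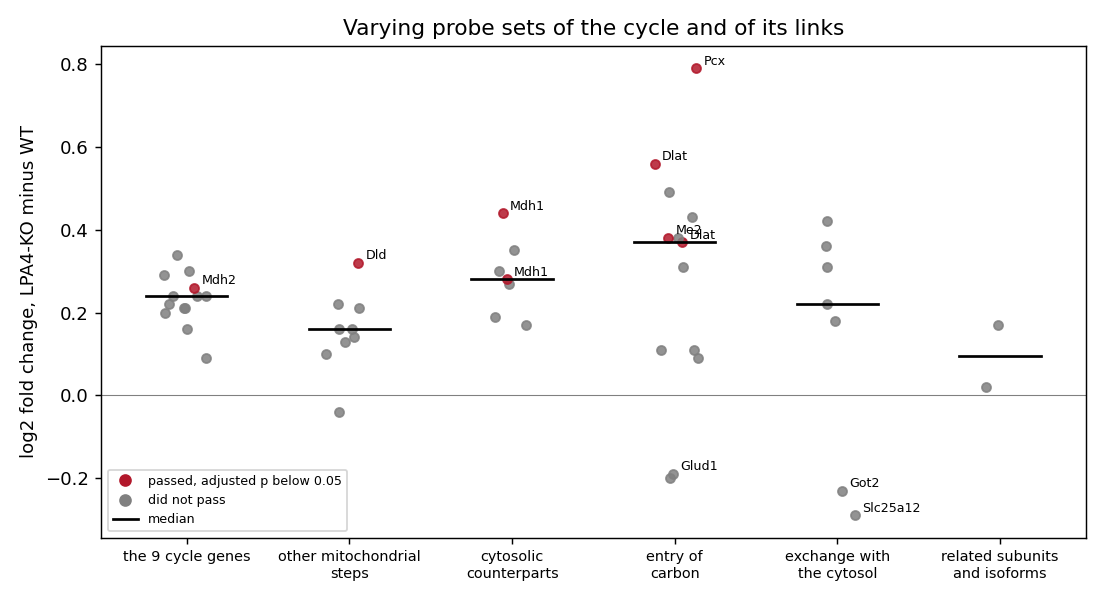
Log2 fold change, LPA4-KO minus WT (y axis), of the varying probe sets of the 9 cycle genes and of the 5 lists of linked genes, with red for probe sets that passed and black lines at the medians. Most points lie above 0, Pcx is the highest at 0.79, and Glud1, Got2 and Slc25a12 lie below -0.1.

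In the same arrays, the varying markers of progenitors and fibroblasts, macrophages and mesothelial cells stood lower in LPA4-KO mice. At the brightest probe set of each gene, only 1 of them passed the test, and over all their probe sets 2 of progenitors and fibroblasts did. With the varying probe sets fitted alone, 8 of 13 progenitor, 4 of 8 mesothelial and 2 of 7 macrophage probe sets were called lower. In that fit 10.5% of all varying probe sets were called lower, and 2 of 8 adipocyte probe sets were called higher. The signal summed over 8 markers of progenitors and fibroblasts ran from 13974 to 17060 in LPA4-KO and from 17990 to 20558 in WT mice, and all 8 markers were lower, with Dpt passing (-0.43 ± 0.04, adjusted p = 0.0258). The sum over 6 macrophage markers ran from 8270 to 9223 in LPA4-KO and from 9553 to 11731 in WT mice. The 5 varying ones were lower and none passed (Mpeg1 had the smallest adjusted p, 0.0602). Lyz2 (11.90 in LPA4-KO and 12.32 in WT mice) and Csf1r (11.18 and 11.39) were the brightest and weigh most in this sum. The sum over 6 mesothelial markers ran from 1463 to 2154 in LPA4-KO and from 2095 to 3929 in WT mice, all 6 lower and none passing. Adipocyte markers summed to between 50293 and 51760 in LPA4-KO and between 49333 and 50298 in WT mice. The 3 brightest genes in this sum are nearly constant, so it cannot show that adipocyte signal was equal in both groups. Of the 4 varying markers, Slc2a4 (0.70 ± 0.20, adjusted p = 0.157), Cidec (0.17 ± 0.07) and Pparg (0.07 ± 0.10) were higher. Lep was lower (-0.32 ± 0.36), and none of the 4 passed.
Of the brown or beige adipocyte markers, Ucp1 was nearly constant at 6.01 and Elovl3 at 5.98, above only 16.8% and 14.7% of the probe sets, and Dio2 was nearly constant at 6.67. Cidea (0.28 ± 0.21), Cox8b (0.41 ± 0.17) and Ppargc1a (0.13 ± 0.15) did not pass, and the sum over all 6 ran from 634 to 820 in LPA4-KO and from 587 to 624 in WT mice. Endothelial and skeletal muscle sums overlapped between groups, but only 1 marker of each varied. These were Pecam1 (-0.32 ± 0.19, adjusted p = 0.447) and Acta1 (-0.72 ± 0.42, adjusted p = 0.448). As the other markers were nearly constant, these sums cannot show that either cell type was equal in both groups. LPA4-KO replicates 1 and 4, the highest for the cycle enzymes, had the lowest progenitor and mesothelial sums of their group but not the lowest 2 macrophage sums. They also had the highest adipocyte sums, 51399 and 51760. WT replicate 1, on average the lowest WT array for the cycle enzymes, also had the lowest WT progenitor sum, 17990. The part of cell composition in the differences of the cycle genes was not tested.

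**Figure D4:**
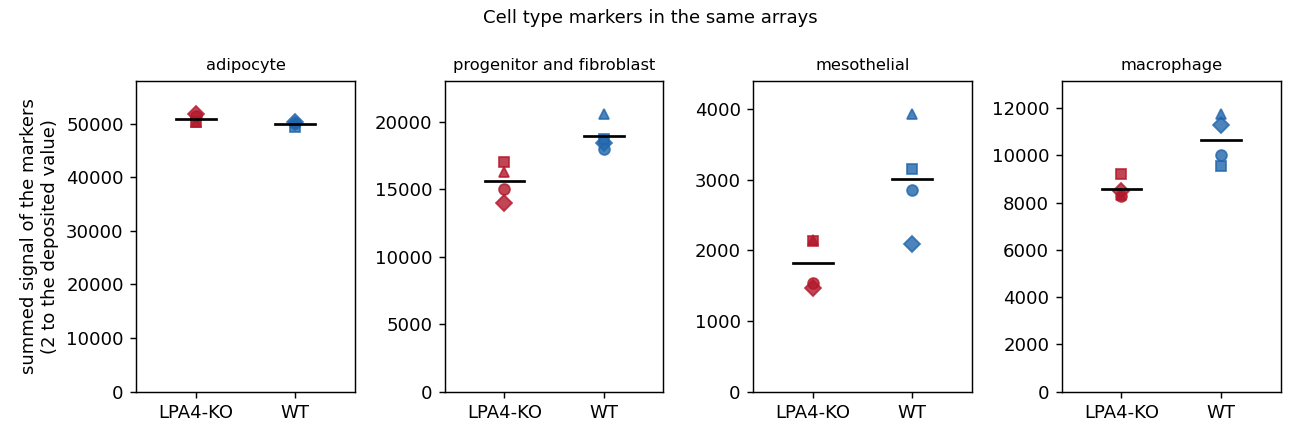
Signal summed over the markers of 4 cell types in each array (y axis, linear, 2 raised to the deposited value, 1 probe set per gene), with LPA4-KO arrays in red to the left of WT arrays in blue and black lines at the means. Progenitor and macrophage sums of LPA4-KO mice lie below those of WT mice, mesothelial sums overlap, and adipocyte sums lie close together.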

How the data were processed

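The deposited table holds 1 log2 value per probe set and array for 45101 probe sets. R 2.14.0 is named in the submitters' processing notes, while the background correction and normalization behind these values were not given in the sources used here. That the scale is log2 was read from the range of the deposited values (5.27 to 14.07). The platform annotation gave 34945 probe sets with 1 gene symbol. Those with several genes (932) or none listed (9160) and 64 controls were left out. The controls include some with a gene symbol, which the written design did not name as excluded, and leaving them out changed no call of the cycle genes. All 9 cycle genes matched the RefSeq table (GRCm38.p6) by Entrez number.

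LPA4-KO was compared with WT by limma 3.58.1 (R 4.3.3; eBayes with the variance trend on), with no filter and no block, and an adjusted p (Benjamini-Hochberg over all 34945 probe sets) under 0.05 was called. Single values also had an exact two-sided permutation test. Where several probe sets of a cycle gene exist, each is given. Named were all cycle genes, and of each linked list the called genes, those with the smallest p and those of opposite sign. The succinate dehydrogenase subunits, Sucla2, Suclg2, Acly, Sdhaf4 and Slc25a11 were added after their values were seen. The members and lists were chosen with earlier results of these data known. Alternatives covered the probe sets tested, scaling, the eBayes prior, array weights, the replicate block and each array left out. On simulated data with changed varying probe sets, the fit of all 34945 recovered 35% of 100 changed 1.5-fold and 76% of 100 changed 2-fold, and the fit of the 6682 varying ones 76% and 93%. False calls were 7 of 118 in the first fit and 6 of 175 in the second. Changes as small as those of the cycle genes, at most 1.26-fold, were not simulated, so recovery at that size is not known.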

Additional observations from a re-analysis of the deposited data

Results flagged for a closer look

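A single array far from the other 3 of its group was found in 6 of 102 groups of 4 arrays, over the varying probe sets of the cycle and linked genes, and chance gives about 1 in 20. Of the 6, 3 were in the cycle genes. WT replicate 1 was low for Idh3g 1416788_a_at, at 10.49 against 10.69 to 10.72 in the other WT arrays, and for Idh3a 1422501_s_at, at 7.75 against 7.80 to 7.81. LPA4-KO replicate 1 was high for Cs 1422578_at, at 10.62 against 10.42 to 10.45 in the other LPA4-KO arrays. In linked genes, LPA4-KO replicate 4 was high for Me1 1430307_a_at, at 10.56 against 10.27 to 10.29. LPA4-KO replicate 1 was high for Sdhd 1437489_x_at, at 8.68 against 8.25 to 8.31. WT replicate 4 was low for Dld 1423159_at, at 9.63 against 9.72 to 9.73.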

How the results depend on the processing

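The 13 varying cycle probe sets had up to 19 alternative fits each, which gave 241 values, each of 1 probe set in 1 fit. All kept their direction, with log2 fold changes from 0.08 to 0.37. Fits that changed only the probe sets tested or the eBayes prior could not alter a log2 fold change, so the values are not independent checks. Of the 241, 33 added a call and 9 ended the call of Mdh2 1416478_a_at. Over all probe sets, 214 were called higher and 112 lower, with 1 in the cycle genes and 8 in the linked genes. The varying probe sets alone gave 558 higher and 701 lower, 9 in the cycle and 13 in the linked genes, and after median centring of these 712 and 576, 10 and 16. Probe sets above the median level gave 350 and 245, with 3 in the cycle. Quantile normalization gave 18596 higher and 1116 lower, 18 in the cycle and 42 in the linked genes, where nearly constant probe sets passed too. Median centring and array weights each gave 2 in the cycle, and array weights 214 lower. With 1 probe set per gene 5 linked genes were called. With the controls that carry a gene symbol put back, an alternative chosen after seeing the data, as were the left-out arrays and the block in the varying probe sets alone, 220 were higher and 114 lower, with 1 in the cycle.

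Robust eBayes called 0 cycle probe sets in limma (12 at an unadjusted p under 0.05). With each array left out the counts ran from 6 to 85 higher, 1 to 40 lower, 0 to 1 in the cycle (12 to 14 at an unadjusted p under 0.05) and 0 to 4 in the linked genes (20 to 25 higher and 3 to 5 lower at that level), and in the varying probe sets alone from 2 to 6 in the cycle.

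The labels share replicate numbers but do not say that a number marks a shared litter or day, and same-numbered arrays correlated at 0.0884, 0.0826, 0.2727 and -0.2017 in their deviations over varying probe sets, so the numbers were not taken as pairs. LPA4-KO replicate 1 correlated best with WT replicate 4 and LPA4-KO replicate 4 with WT replicate 2, while LPA4-KO replicates 2 and 3 correlated best with their own number. With the replicate block limma called 0 higher and 3 lower, 0 in the cycle (13 at an unadjusted p under 0.05) and 0 in the linked genes (25 higher and 3 lower at that level). With the varying probe sets alone the block gave 2 in the cycle. Signal over background is unknown here, so the flat probe sets of Ogdh and Dlst set the limit of what could be compared.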
